A study of Homo sapiens with 6 samples.

Results

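Open chromatin was compared between GM12878 cells sorted for high and for low staining of H3K27ac. The comparison used 4 of the series' 6 libraries, 2 labelled H3K27ac high and 2 labelled H3K27ac low. From these 4 lists alone, peak summits on chromosomes 1 to 22 that lay under 500 bp apart were chained into 63454 regions, and the regions were then compared by their place relative to protein-coding genes. GM12878 is a B lymphoblastoid cell line, that is, B cells immortalised by Epstein-Barr virus. Both sorted groups were fixed with 1.6% paraformaldehyde for 5 min, stained for the mark and gated, and 50000 cells per replicate were transposed with Tn5 for 30 min at 37 °C before overnight reversal of crosslinks. The staining protocol writes the antibody target as H3K37ac, and it was read as H3K27ac as in the labels of the sorted fractions. The remaining 2 libraries came from live, unsorted cells of the line whose DNA was purified straight after transposition, and they are given as background only. Per the labels, sorted cells were counted and divided into the replicates, but whether both replicates of a group came from 1 sort is not stated. The spread between them may therefore be technical. The p-values come from relabelling these 4 libraries, and variation between sorts may not enter them.

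H3K27ac is an acetyl mark on histone H3 that is placed at active promoters and enhancers by the acetyltransferases EP300 and CREBBP and read by bromodomain proteins. Tn5 inserts sequencing adapters where DNA is not wrapped tightly in nucleosomes, so a summit marks a point of local accessibility. Promoters are open in most cell types and are often rich in CpG, whereas distal enhancers are more specific to a cell type. The comparison asks whether cells with much and with little of the mark differ in where their best supported open sites lie.

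Promoters are shown first, because the share of gene ends among the best 2500 regions differed between the groups as given below. Each stretch below spans 250 bases before to 50 bases after an annotated transcription start, as RefSeq gives it for GRCh38.p14, written 5′ to 3′ on the gene's strand with every CpG in capitals. The first 3 belong to regions that ranked far better in both low libraries, namely NSFL1C (chr20:1466800-1467099, minus strand, 43 CpG), PWWP3A (chr19:1354709-1355008, plus strand, 49 CpG) and NTMT1 (chr9:129626194-129626493, plus strand, 36 CpG).
NSFL1C: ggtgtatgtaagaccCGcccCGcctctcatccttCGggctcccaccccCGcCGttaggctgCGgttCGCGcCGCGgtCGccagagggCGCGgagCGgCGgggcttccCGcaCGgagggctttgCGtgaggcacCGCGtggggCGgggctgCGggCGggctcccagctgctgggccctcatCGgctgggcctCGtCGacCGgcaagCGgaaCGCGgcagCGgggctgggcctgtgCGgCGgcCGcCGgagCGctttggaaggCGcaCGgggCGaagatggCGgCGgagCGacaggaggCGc
PWWP3A: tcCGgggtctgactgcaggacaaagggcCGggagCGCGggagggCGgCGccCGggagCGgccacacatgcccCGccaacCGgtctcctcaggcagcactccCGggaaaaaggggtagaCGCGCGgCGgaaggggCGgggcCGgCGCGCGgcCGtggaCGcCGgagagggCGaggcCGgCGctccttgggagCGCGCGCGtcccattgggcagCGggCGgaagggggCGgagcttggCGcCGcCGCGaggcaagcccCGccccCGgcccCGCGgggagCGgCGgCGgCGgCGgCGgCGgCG
NTMT1: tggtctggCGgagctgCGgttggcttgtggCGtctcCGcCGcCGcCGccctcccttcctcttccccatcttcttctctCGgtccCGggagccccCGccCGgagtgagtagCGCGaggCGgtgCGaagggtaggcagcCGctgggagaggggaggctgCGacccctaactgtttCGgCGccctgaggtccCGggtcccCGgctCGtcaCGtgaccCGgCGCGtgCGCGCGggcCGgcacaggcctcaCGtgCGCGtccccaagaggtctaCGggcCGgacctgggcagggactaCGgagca
The next 3 belong to regions that ranked better in both high libraries, namely SLC22A5 (chr5:132369460-132369759, plus strand, 36 CpG), KCNH1 (chr1:211134099-211134398, minus strand, 32 CpG) and C1orf115 (chr1:220690113-220690412, plus strand, 29 CpG).
SLC22A5: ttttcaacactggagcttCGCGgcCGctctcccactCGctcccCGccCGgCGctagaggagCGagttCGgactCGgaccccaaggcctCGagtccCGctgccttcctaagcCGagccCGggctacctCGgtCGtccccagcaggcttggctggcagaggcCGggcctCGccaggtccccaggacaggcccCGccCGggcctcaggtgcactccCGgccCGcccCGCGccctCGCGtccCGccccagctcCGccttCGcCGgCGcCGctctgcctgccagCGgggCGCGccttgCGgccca
KCNH1: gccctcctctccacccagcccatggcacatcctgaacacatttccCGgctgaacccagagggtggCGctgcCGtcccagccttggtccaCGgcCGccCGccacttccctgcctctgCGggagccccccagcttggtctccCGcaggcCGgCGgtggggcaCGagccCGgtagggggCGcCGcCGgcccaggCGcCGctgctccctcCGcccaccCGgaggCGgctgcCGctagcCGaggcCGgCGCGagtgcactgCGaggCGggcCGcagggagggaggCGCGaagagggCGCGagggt
C1orf115: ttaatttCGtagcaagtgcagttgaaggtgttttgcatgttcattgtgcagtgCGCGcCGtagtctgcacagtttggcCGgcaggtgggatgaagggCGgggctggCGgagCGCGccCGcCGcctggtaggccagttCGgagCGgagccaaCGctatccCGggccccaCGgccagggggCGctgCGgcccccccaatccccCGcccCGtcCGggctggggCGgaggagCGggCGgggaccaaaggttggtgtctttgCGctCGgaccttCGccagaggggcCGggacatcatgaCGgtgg
The last pair were each among the best of 1 group only at equal list length, in the low group KEAP1 (chr19:10502722-10503021, minus strand, 40 CpG), and in the high group BCL6 (chr3:187745419-187745718, minus strand, 12 CpG).
KEAP1: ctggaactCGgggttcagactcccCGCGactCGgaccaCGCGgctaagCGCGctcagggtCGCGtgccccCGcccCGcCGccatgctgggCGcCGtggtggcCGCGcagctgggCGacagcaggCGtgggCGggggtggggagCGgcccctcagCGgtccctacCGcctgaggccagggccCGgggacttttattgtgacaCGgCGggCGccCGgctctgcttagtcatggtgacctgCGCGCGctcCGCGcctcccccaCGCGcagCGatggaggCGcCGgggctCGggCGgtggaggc
BCL6: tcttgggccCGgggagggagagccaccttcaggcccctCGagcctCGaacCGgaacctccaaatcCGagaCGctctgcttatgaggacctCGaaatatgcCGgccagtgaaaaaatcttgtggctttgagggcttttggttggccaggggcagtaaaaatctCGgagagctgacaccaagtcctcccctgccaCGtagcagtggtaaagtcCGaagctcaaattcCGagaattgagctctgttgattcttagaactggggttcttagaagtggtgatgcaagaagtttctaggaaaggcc

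The 4 lists differed in length. The high lists held 25754 and 46708 summits and the low lists 41980 and 51944, against 70100 and 72476 in the live control, and after chaining the sorted libraries had 24370, 44193, 39827 and 49298 regions in the same order. Each list was therefore ranked by its best score, the −log10 of a p-value or q-value from the authors' peak caller, with rank 1 the best, and cut to the best 24370 regions, the whole of high replicate 1. High replicate 1 stood apart from the other 3. Its ranks correlated across the 20264 regions called in all 4 lists at a Spearman rho of 0.767 with high replicate 2 and of 0.695 and 0.690 with the low libraries. High replicate 2 correlated at 0.842 and 0.858 with the low libraries, and the low libraries at 0.900 with each other. High replicate 2 thus ranked regions more like the low libraries than like its own replicate, and the main results are also given without high replicate 1. Regions are not independent replicates, and the 4 lists share cells of 1 line, so these correlations are descriptions. As to cell identity, 7 of 12 B cell marker genes had an open gene end in each sorted library. These were CD74, CD79B, EBF1, HLA-DRA, MS4A1 and POU2AF1 in every one, with PAX5 in high replicate 1 and CD79A in the other 3. All 8 lymphoblastoid activation markers had a region at or in them in every one. The myeloid markers had 0 of 6 gene ends open and the erythroid markers 0 of 4 matched gene ends open in all 4 libraries. Of 8 T and NK cell markers, 3, 4, 3 and 3 gene ends were open, with CD3E and CD8A open in all 4.

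Each region was placed by its distance to the nearest end of a protein-coding gene: at a gene end (within 1 kb), in the flank (beyond 1 kb and up to 5 kb), inside a gene, intergenic, or outside genes and over 100 kb from any gene end. Gene ends include starts and terminations, since the gene table gives no strand. Among all 63454 regions, 62.8% of the 11701 at gene ends were called in all 4 full lists. The share was lower in the other places, at 25.9% in the flank, 25.9% inside genes, 25.3% in intergenic DNA and 21.2% over 100 kb away. Over all places it was 31.9%.

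Among the best 2500 regions of each library, gene ends made up a smaller share in the high libraries than in the low ones. The share was 62.2% in high replicate 1 (95% Wilson interval 60.3 to 64.1) and 69.9% in high replicate 2 (68.1 to 71.6). It was 80.8% in low replicate 1 (79.2 to 82.3) and 79.8% in low replicate 2 (78.2 to 81.3). Both high libraries lay below both low libraries, with means of 66.0% ± 5.43 (SD, n = 2) and 80.3% ± 0.679 (SD, n = 2). An exact permutation test over the libraries (two-sided) gave p = 0.333, which is the smallest value that 2 libraries against 2 allow, here and in each comparison of 4 libraries that follows. The live control lay at 68.5% and 68.1%, between the high replicates. These intervals cover counting error only.

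The best regions of the high libraries lay more often inside genes and in distal DNA. Regions inside genes made up 16.0% and 13.1% of the best 2500 in the high libraries and 7.64% and 8.32% in the low libraries, a difference of 6.54 percentage points (exact permutation p = 0.333). Intergenic regions made up 10.6% and 8.40% of the high lists and 5.48% and 5.64% of the low lists, a difference of 3.96 points (exact permutation p = 0.333). Regions over 100 kb from a gene were 6.60% and 4.48% in the high libraries and 1.56% and 1.68% in the low ones, a difference of 3.92 points (exact permutation p = 0.333). In these 3 places the groups did not overlap. The flank did not separate them, at 4.60% and 4.16% against 4.56% and 4.56% (difference -0.18 points, exact permutation p = 1).

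**Figure D1:**
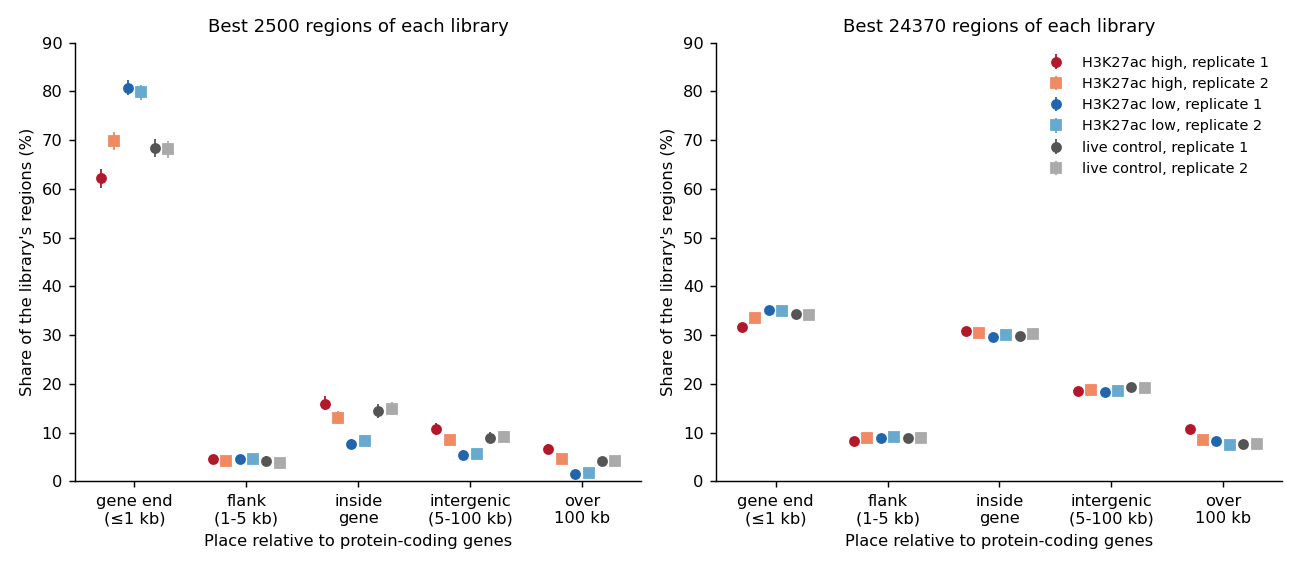
Share of each library's regions (%, vertical axis) in the 5 places (horizontal axis), for the best 2500 (left) and the best 24370 regions (right), with 1 point per library and bars for the 95% Wilson interval. On the left both low libraries lie near 80% at gene ends, above both high libraries and both live control libraries, and on the right the libraries lie between 31.6% and 35.0%.

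With longer lists the difference shrank. At the full equal length of 24370, gene ends made up 31.6% and 33.4% of the regions in the high libraries (32.5% ± 1.26, SD, n = 2) and 35.0% and 34.9% in the low libraries (35.0% ± 0.0696, SD, n = 2). That is a difference of -2.48 points, with groups that do not overlap and an exact permutation p = 0.333. Regions over 100 kb away made up 10.8% and 8.51% of the high lists and 8.20% and 7.48% of the low lists, a difference of 1.80 points (exact permutation p = 0.333). Inside genes the difference was 0.804 points and in intergenic DNA 0.341 points (exact permutation p = 0.333 for both). In the flank it was -0.462 points (exact permutation p = 0.333). When high replicate 1 was left out and the other lists lengthened to the next shortest, the gene-end difference was -0.241 points and that over 100 kb away turned to -0.299 points. Left out at the same length, these differences were -1.59 and 0.675 points, and that of the flank was -0.191 points.

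The contrast lay in the order of the regions. In consecutive bins of 2500 ranks, the gene-end share fell in every library, and the order of the groups changed along the list. At ranks 10001 to 12500 it was 29.1% and 31.5% for the high libraries against 27.6% and 29.7% for the low, and the groups overlapped. In the last bin, ranks 22501 to 24370, it was 14.7% and 14.2% in the high libraries and 11.6% and 11.5% in the low ones, so the high libraries were above the low. At that end of the list 19.5% of the regions of high replicate 1 lay over 100 kb from a gene, against 11.0% in high replicate 2, 12.6% in low replicate 1 and 9.73% in low replicate 2. The score at rank 24370 was 2.96 in high replicate 1 and 12.2, 9.76 and 14.3 in high replicate 2, low replicate 1 and low replicate 2. The list of high replicate 1 ended there, while the others went on. Scores of different lists share no common scale, and the part of list length in this bin was not tested.

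**Figure D2:**
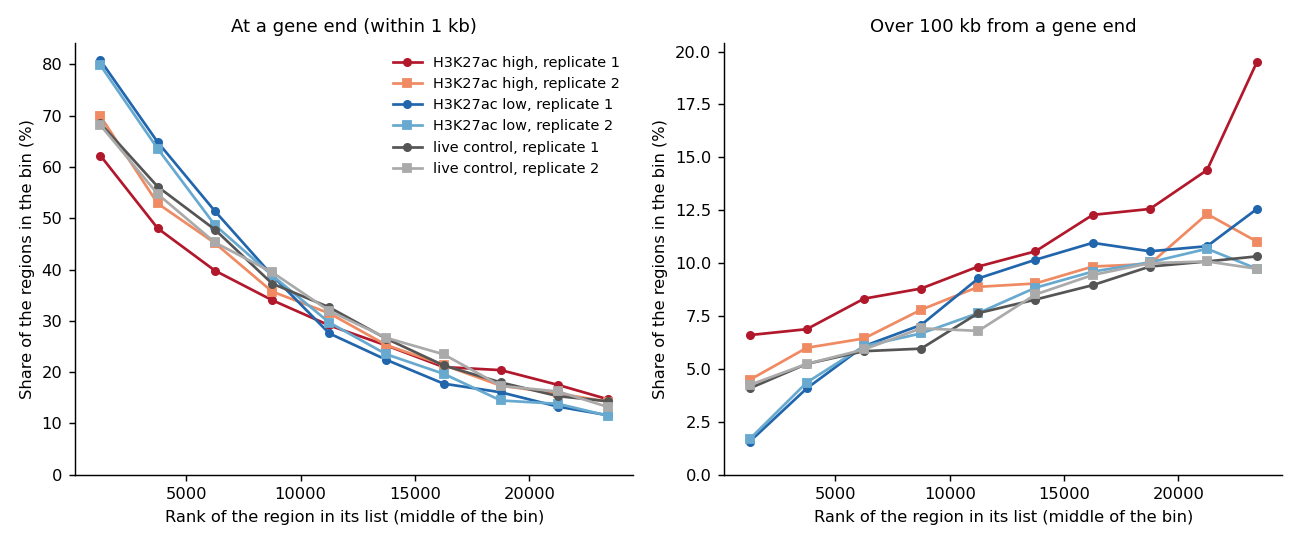
Share of regions at a gene end (left) and over 100 kb from one (right) in bins of 2500 ranks (%, vertical axis; the last bin ends at rank 24370), against the middle rank of the bin, with 1 line per library. The low libraries start at 80.8% and 79.8% on the left and cross below the high libraries further down the lists, and high replicate 1 lies highest on the right, ending at 19.5%.

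Presence was then compared region by region at equal list length. Of 34992 regions among the best 24370 of any sorted library, 16027 were among the best of all 4. A total of 903 (2.58%) were among the best of both high and of neither low library, and are called high-only here, and 1215 (3.47%) were low-only. These shares over all places, 2.58% and 3.47%, are the background for the counts by place. At gene ends 75 of 9500 regions were high-only (0.789%) and 296 were low-only (3.12%). In the flank 87 of 3233 were high-only (2.69%) and 142 low-only (4.39%). Inside genes the counts were 373 and 416 of 11532 (3.23% and 3.61%), and in intergenic DNA 232 and 282 of 7071 (3.28% and 3.99%). Over 100 kb away 136 of 3656 were high-only (3.72%) and 79 low-only (2.16%). Gene ends stood out by a low high-only share, and the most distant place was the only one of the 5 with more high-only than low-only regions.

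Being outside the best 24370 was mostly a matter of rank. Of the high-only regions, 823 of 903 (91.1%) were called further down a full low list. Of the low-only regions, 1059 of 1215 (87.2%) were in the full list of high replicate 2, and 0 were in that of high replicate 1, as the equal length uses its whole list. With absence required of every summit of the other group within 1 kb, 44 high-only and 142 low-only regions were left. At gene ends that left 1 of 75 high-only and 21 of 296 low-only regions. The most similar pair of lists at equal length was the low libraries, which shared 83.8% of their regions. The high libraries shared 76.2%, below the 81.8% and 82.8% that high replicate 2 shared with the low libraries. Without high replicate 1 the counts were 2703 high-only and 1985 low-only regions, and without high replicate 2 they were 4877 and 3628. Without low replicate 1 they were 1712 and 2946, and without low replicate 2 they were 1745 and 3102. The class that had to be held by fewer lists was the larger each time, so the order of the 2 counts was not stable. At gene ends low-only regions were the more numerous with any 1 library left out, for example 490 against 228 without high replicate 1. Over 100 kb away high-only regions were the more numerous without high replicate 1 (396 against 152), high replicate 2 (1022 against 219) or low replicate 1 (268 against 227), but not without low replicate 2 (217 against 316).

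The low-only regions at gene ends that ranked best lay at KEAP1, PNPLA2 and FBL. The region at the KEAP1 start (chr19:10502722-10502808), the adaptor that directs the stress factor NRF2 to degradation, ranked 6039 and 5543 in the low libraries, 39048 in high replicate 2, and was not called in high replicate 1. Its live ranks were 13528 and 9743. The FBL region (chr19:39846433-39846501), 56 bp before the start of the gene for the ribosomal RNA methyltransferase fibrillarin, had ranks of 7716 and 5683 in the low libraries, against 25176 in high replicate 2. At PNPLA2, which encodes adipose triglyceride lipase, the low-only region (chr11:819520-819520) lay 606 bp into the gene and ranked 6334 and 7467, and the nearest summit of a high library was 536 bp away. This is a second summit near a site that was open in a high library. The RPL23 region, 51 bp from an end, start or termination, of this ribosomal protein gene, had ranks of 7827 and 11085 in the low libraries, against 31274 in high replicate 2.

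Low-only regions at gene ends with no high summit within 1 kb were led by SYT5 and METRN. The region 51 bp before the start of SYT5 (chr19:55179399-55179422), a synaptotagmin, had ranks of 10796 and 9225 in both low libraries, against 9867 and 10349 in the live control. The nearest summit of a high library was 12659 bp away. The region 35 bp before the start of METRN (chr16:715083-715083), which encodes the secreted factor meteorin, ranked 12754 and 11834, with the nearest high summit 6035 bp away. The same absence held in the flank of CACNA1A (chr19:13208361-13208372), a calcium channel gene, and 18727 bp from FCRL2 (chr1:157727006-157727022), an Fc receptor-like gene of B cells. Both of these were ranked between 12097 and 13911 in the low libraries.

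High-only regions at gene ends were few, and at RASA2, EIF1 and KAT2B they were second summits near a site open in a low library. At RASA2, which encodes a Ras GTPase-activating protein, the region (chr3:141487796-141487815) ranked 8367 and 7935 in the high libraries and was in neither low list, but a low summit lay 697 bp away. At EIF1, a factor of start codon selection, the region 413 bp after the start (chr17:41689298-41689386) ranked 12091 and 4596 with a low summit 512 bp away. At KAT2B, which encodes the acetyltransferase PCAF, the region 341 bp after the start ranked 5321 and 16008, with a low summit 681 bp away. CAPSL differed from these, since its region (chr5:35904875-35904986) was called in all 4 lists, at ranks 8501 and 9796 in the high libraries and 31147 and 26730 in the low ones. The BCL6 promoter printed above, of a repressor of germinal centre B cells, was high-only with ranks of 18735 and 21549 against 31820 and 26806.

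Away from gene ends, both directions held named regions. Inside genes, the best high-only regions lay in GALNT13 (chr2:154392444-154392557, with ranks of 8492 and 10408 in the high libraries against 27487 and 25986 in the low), in GPR19 and in CREBZF. In CASR, the calcium-sensing receptor gene, the high-only region (chr3:122255959-122255984) ranked 9392 and 14351, with the nearest low summit 2936 bp away. GALNTL6, SHQ1 and the DNA 65554 bp from NDFIP2 held the other high-only regions that ranked best among those without a low summit within 1 kb. Low-only regions inside genes lay in WIZ (chr19:15432764-15432832, ranks 9600 and 10409), LMF1 (chr16:970991-971067, ranks 11380 and 8982) and RAB44 (chr6:36726726-36726763, ranks 11295 and 9150), with high replicate 2 at 32795, 27636 and 30690. The WIZ and LMF1 regions lay 69 bp and 24 bp before annotated starts within those genes, so they are internal promoters by annotation. In the flank, low-only regions lay 1234 bp from SMAD7 (chr18:48951916-48952705), an inhibitor of TGF-beta signalling, and 101 bp before an annotated start of TRIOBP (chr22:37746109-37746267).

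High-only intergenic regions lay 9829 bp from NR4A2 (chr2:156342550-156342551, ranks 3411 and 10168), an orphan nuclear receptor gene, and 10541 bp from ADM (chr11:10317924-10317955, ranks 10349 and 10916), which encodes the peptide adrenomedullin. The NR4A2 region was in neither low list and neither live list, with a low summit 655 bp away. Low-only intergenic regions lay near FEM1A, EIF1 and NECAP2, with ranks from 5783 to 12040 in the low libraries. Over 100 kb from genes, high-only regions lay at chr18:60599444-60599477 (ranks 5913 and 12358 against 36888 and 37772) and chr2:122883971-122884094 (11698 and 12288 against 34326 and 26643). The low-only region chr11:31943190-31943229 had ranks of 11218 and 14004 in the low libraries, against 27722 in high replicate 2.

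The 20264 regions called in all 4 full lists were ranked again among themselves in each library. This set is filtered unequally, since a region had to be in the whole list of high replicate 1, the shortest. Of the 903 high-only regions, 583 were in both full low lists and so in the set. Of the 1215 low-only regions, 0 were in the set, as none was called in high replicate 1. The effect of this filter on the shares below was not tested. Both high ranks were better than both low ranks in 4832 regions (23.8%), and both low ranks were better in 4636 (22.9%). These background shares of 23.8% and 22.9% were nearly equal over all places, and the places differed. At gene ends 951 of 7344 regions ranked better in both high libraries (12.9%) and 2831 in both low libraries (38.5%). Over 100 kb away the order was the opposite, with 659 of 1724 better in the high libraries (38.2%) and 159 better in the low ones (9.22%). Inside genes the shares were 29.9% and 13.4% of 5946, in intergenic DNA 29.8% and 13.9% of 3588, and in the flank 22.4% and 21.2% of 1662.

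The median ranks gave the same order of places. At gene ends the median was 7288 and 6292 in the high libraries and 5057 and 5187.5 in the low ones, a difference of 1667.75 positions. Both high libraries ranked gene ends behind both low libraries (exact permutation p = 0.333). Over 100 kb away it was 11113.5 and 12594.5 for the high libraries against 13217.5 and 13850.5 for the low, a difference of -1680 positions (exact permutation p = 0.333). Inside genes the medians were 11581 and 12405.5 against 12974 and 12992.5 (difference -990, exact permutation p = 0.333). In intergenic DNA they were 11578.5 and 12093 against 12780.5 and 12562 (difference -835.5, exact permutation p = 0.333). In the flank the medians of the groups overlapped, at 11728.5 and 11859 against 11959.5 and 11849.5 (exact permutation p = 0.667). Without high replicate 1, the gene-end difference was 1624 positions and that over 100 kb away was -1142, so both kept their direction. This leaves 1 high library, and the part of single libraries was not tested. In these 3 libraries 25.0% of the same 7344 gene ends ranked better in the high and 50.2% in the low group. The shares are larger since fewer ranks have to be in order.

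The live control can be placed on the same scale through the 19939 regions called in all 6 lists. At gene ends the median ranks were 7193 and 6199 in the high libraries, 6038 and 6160 in the live control and 4989 and 5105 in the low libraries. The live libraries lay between the groups, close to high replicate 2. Over 100 kb away the medians were 10817.5 and 12377 for the high, 13151.5 and 12992.5 for the live and 13016 and 13609 for the low libraries, so there the live control overlapped the low libraries. The live control was not fixed, stained or sorted, and its difference from the sorted cells cannot be told apart from these steps. Of the high-only regions, 210 of 903 (23.3%) were among the best 24370 of both live libraries, as were 429 of 1215 low-only regions (35.3%) and 90.3% of those in all 4. At gene ends this was 41.3% of high-only and 48.0% of low-only regions, and over 100 kb away it was 25 of 136 and 15 of 79.

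Among shared regions, the widest gaps towards the low group at gene ends were at NSFL1C and PWWP3A, whose promoters are printed above. NSFL1C encodes p47, a cofactor of the VCP ATPase. Its region ranked 17841 and 17221 of 20264 in the high libraries and 4285 and 3843 in the low ones. PWWP3A, a chromatin protein with a PWWP domain, ranked 17702 and 18888 against 4064 and 6346. The region at the NTMT1 start, which lies in the flank of C9orf50, ranked 19047 and 18661 against 7656 and 7520. NTMT1 encodes a methyltransferase for protein N-termini. In all 3 the groups were separated by over 5000 positions. PNPLA6 in the flank (chr19:7535314-7535658), LMTK3 (chr19:48493284-48493484) and MYO16 (chr13:108575574-108575724) inside genes, and DNA near PTMA and NFAM1 led the other places. The region 11024 bp from NFAM1 (chr22:42369378-42369477), an immune receptor gene, stood at 18152 and 15034 in the high libraries, against 5884 and 4292 in the low ones.

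The widest gaps towards the high group lay mostly outside gene ends. The region 2590 bp from RBM20 (chr10:110842031-110842487), a regulator of splicing, stood at 5456 and 4760 in the high libraries, against 15999 and 14291 in the low ones. The region 4541 bp from ARID5B (chr10:61897135-61897200), a DNA-binding factor, ranked 7610 and 9062 against 16280 and 16051. Inside FAM114A1 (chr4:38939301-38939316) the ranks were 5009 and 6117 against 15135 and 16186. MICAL2 (chr11:12174512-12174683), an enzyme that oxidises actin, held a region at 7347 and 8405 against 17990 and 17099. Intergenic DNA 24836 bp from TRAPPC11 (chr4:183738367-183738507) ranked 4779 and 6268 against 15768 and 14424. Of the promoters printed above, SLC22A5, the carnitine transporter gene, ranked 8359 and 9550 against 16986 and 14770. KCNH1, a potassium channel gene, ranked 7212 and 7173 against 15620 and 12118, and C1orf115 ranked 6184 and 9094 against 15995 and 13708. Over all places, gaps over 5000 positions were seen towards the low group in 300 and towards the high group in 172 of 20264 regions. At gene ends they were seen in 219 and 5 of 7344 in the same order. Over 100 kb away they were seen in 6 and 38 of 1724.

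**Figure D3:**
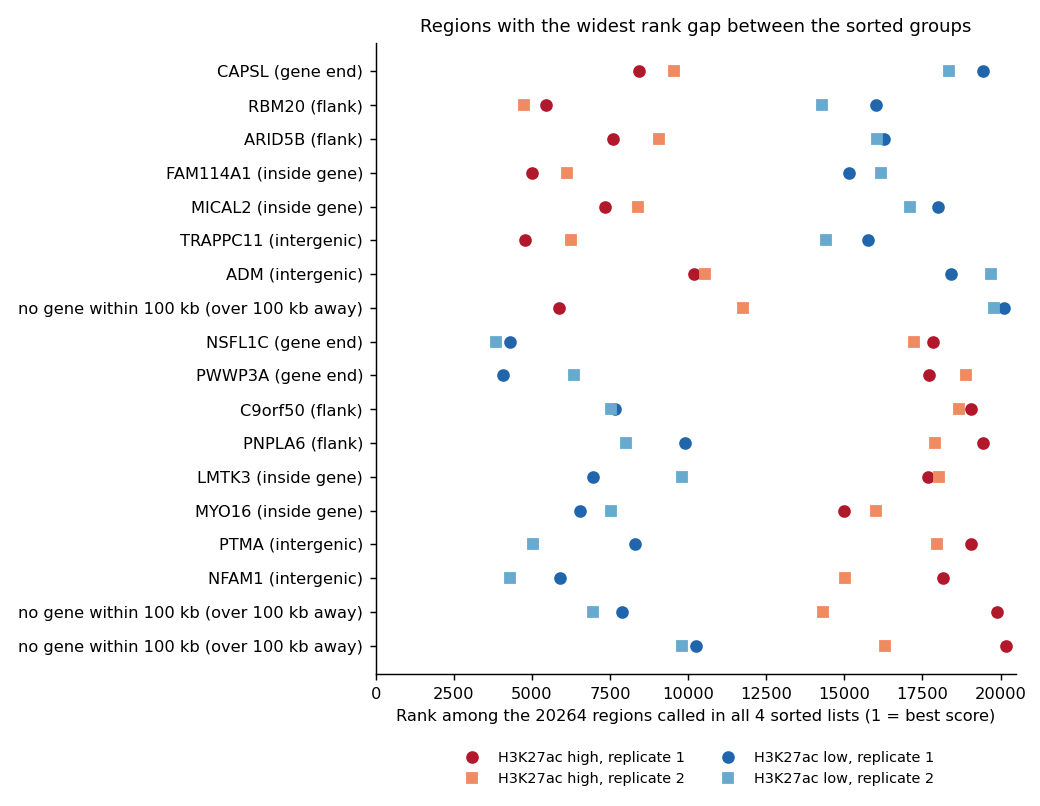
Ranks of regions with the widest gaps between the groups among the 20264 shared regions (horizontal axis, 1 = best), 1 row per region named by its gene and place, 1 point per library. The rows were chosen for their gap, upper rows towards the high and lower rows towards the low libraries, and the high replicates lie furthest apart in the 3 rows over 100 kb away.

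Gene density moved with these results. Regions fell into 3 density classes of about equal size, with up to 5, up to 11 and up to 76 protein-coding genes in a window reaching 500 kb to each side. The class with the most genes held 29.1% and 33.2% of the best 24370 regions of the high libraries and 34.7% and 36.3% of those of the low libraries. The class with the fewest held 37.6% and 32.9% against 32.2% and 30.5%. In neither class did the groups overlap (exact permutation p = 0.333), with differences of -4.40 and 3.94 points. Without high replicate 1 these were -2.36 and 1.58 points. Low-only regions at gene ends had a median of 20 genes in their window, high-only regions 8 and those in all 4 libraries 11. By chromosome, 1310, 1300 and 499 regions were compared on the gene-rich chromosomes 19, 17 and 22. Of these, 119, 95 and 42 were low-only and 5, 13 and 0 high-only. On chromosomes 2, 5 and 4, 3041, 2230 and 2035 regions were compared. Of these, 83, 59 and 43 were low-only and 98, 78 and 60 high-only.

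Within the density classes, the contrast in shared ranks at gene ends was strongest where genes were dense and turned where they were sparse. In the densest class 5.44% of 3603 shared gene-end regions ranked better in both high libraries and 53.5% in both low libraries. In the middle class it was 16.9% and 27.6% of 2537. In the sparsest class it was 27.1% and 17.1% of 1204, so there more gene ends ranked better in the high group. The median ranks in the densest class were 9259 and 7309 for the high libraries against 5175 and 5237 for the low. In the sparsest class they were 4672 and 5117.5 against 4970.5 and 5423, and the groups overlapped. Without high replicate 1, the shares were 15.5% and 63.4% in the densest class and 40.6% and 33.4% in the sparsest, so the order held in both.

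The other places followed the density classes as well. Inside genes 35.3% of regions in the sparsest class ranked better in the high and 9.24% in the low libraries, against 18.1% and 25.8% in the densest class. In intergenic DNA the shares were 35.3% and 8.86% against 18.9% and 23.5%, and in the flank 31.7% and 10.8% against 13.7% and 33.4%. Most regions over 100 kb away were in the sparsest class, where 38.7% of 1554 ranked better in the high and 9.07% in the low libraries, and 9 were in the densest. In each density class the share that ranked better in the low group was higher at gene ends than in any other place. The share of gene ends among the best 24370 regions, taken within each class, did not follow the order of the shared ranks. Its difference was -1.65 points in the sparsest, -1.33 in the middle and 0.204 in the densest class (exact permutation p = 0.333, 0.333 and 1). Most of the low-only regions at gene ends, 225 of 296, lay in the densest class, which held 21 of the 75 high-only ones. That class also held 5023 of all 9500 gene-end regions compared. In the sparsest class the counts were 19 low-only and 24 high-only of 1450 gene-end regions compared. The separate parts of place and density in the result were not tested.

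**Figure D4:**
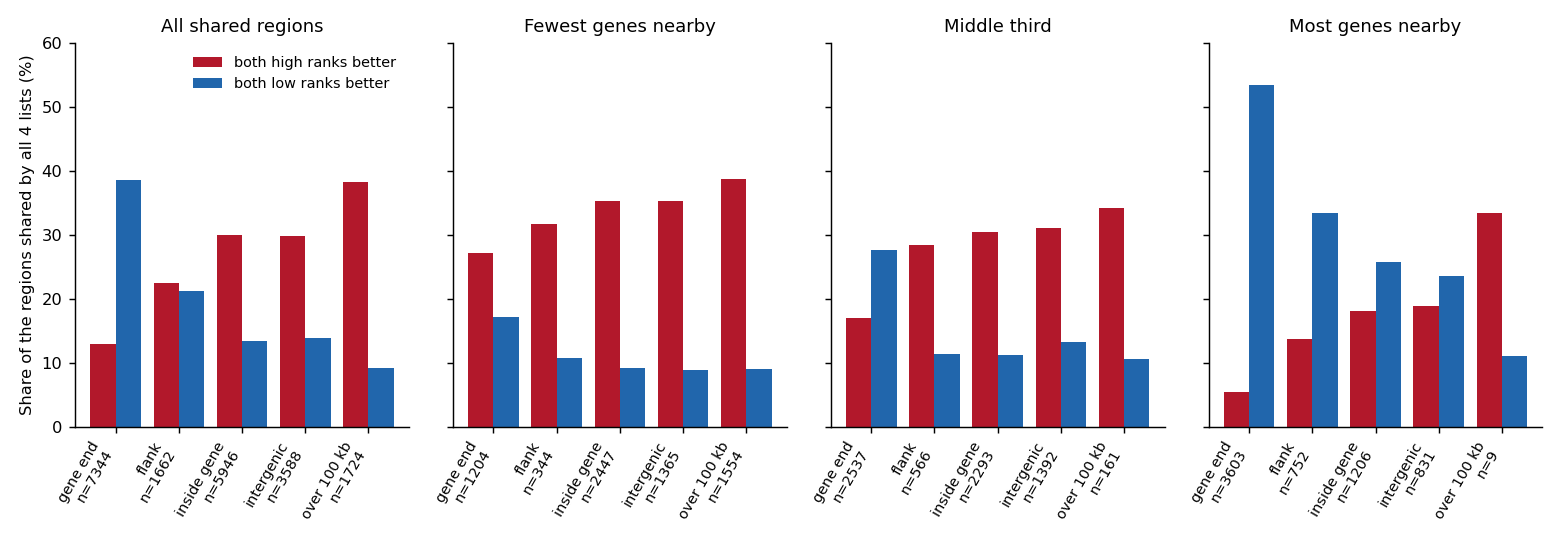
Share of the regions called in all 4 sorted lists (%, vertical axis) in which both high ranks were better (red) or both low ranks were better (blue), by place, for all regions and for the 3 classes of gene density, with the number of regions under each pair of bars. At gene ends blue exceeds red overall and with most genes nearby (53.5% against 5.44%), and red exceeds blue with fewest genes nearby (27.1% against 17.1%).

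Annotated transcription starts divided the gene ends further. RefSeq's promoter table lists 21156 starts for 15101 of the 19126 protein-coding genes used. Among the best 2500 regions, 57.6% and 64.2% of those of the high libraries lay within 1 kb of a listed start, against 75.9% and 75.1% of those of the low, a difference of -14.56 points (exact permutation p = 0.333). At the equal length of 24370 this difference was -2.09 points. Gene ends with no listed start made up 9.44% and 10.9% of the best 2500 against 11.0% and 11.1%, a difference of -0.86 points (exact permutation p = 0.333). In points the difference was larger at listed starts than at other gene ends, but the other gene ends hold far fewer regions. At the equal length listed starts made up 29.1% and 30.5% against 31.9% and 31.8%. Other gene ends made up 6.17% and 6.75% against 7.18% and 7.22%, a difference of -0.739 points. Among the best regions inside genes, 20.8% and 27.8% of those of the high libraries were at a listed start, against 50.8% and 51.0% of those of the low. At the equal length these were 7.77% and 8.25% against 8.71% and 8.76%, a smaller gap of -0.731 points. Of the gene-end regions, 42 of 75 high-only (56.0%), 193 of 296 low-only (65.2%) and 81.9% of those in all 4 lay at a listed start. The median position of the summit relative to the start did not separate the groups. Over 6753 shared regions it was -74 and -73 bp for the high libraries against -73 and -73 bp for the low (exact permutation p = 1). The share of these summits within the 250 bases before to 50 after the start was 76.8% and 80.9% for the high libraries and 81.8% and 82.3% for the low, without overlap (difference -3.20 points, exact permutation p = 0.333).

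Promoter sequence was read for regions at listed starts. The promoters of low-only regions had a median GC content of 69.5% and 29 CpG (242 regions), and those of high-only regions 63.7% and 22 CpG (63 regions). Shared regions that ranked better in both low libraries had 68.0% and 30 CpG (2617 regions), and those better in both high libraries 62.7% and 24 CpG (873 regions). All listed promoters had medians of 62.7% and 21. Those of regions among the best of all 4 libraries had 66.0% and 28 CpG (6320 regions). Shared regions whose group ranks overlapped had 65.3% and 27 CpG (3263 regions). In CpG count the low-only promoters were thus close to those in all 4, and the high-only promoters lay below them. The promoters printed above span this range, since KEAP1 holds 40 CpG and BCL6 holds 12, but SLC22A5 with 36 ranked better in the high libraries.

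The rank shift rose with CpG count. Regions were divided into 4 classes with the bounds of all listed promoters. With up to 7 CpG, 28.4% of 268 shared regions ranked better in both high and 13.8% in both low libraries. With up to 21 the shares were 16.8% and 30.2% of 1528, with up to 31 they were 13.5% and 37.9% of 2543, and above that 8.20% and 47.8% of 2414. Without high replicate 1 the first class gave 39.2% and 27.6% and the last 19.1% and 58.7%. Presence did not follow this order. From the first to the last class, 17 of 441 (3.85%), 55 of 1965 (2.80%), 63 of 3086 (2.04%) and 107 of 3123 (3.43%) regions were low-only, against a background of 3.47%. High-only were 12 (2.72%), 19 (0.967%), 14 (0.454%) and 18 (0.576%).

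CpG count and gene density overlapped. In the densest class, promoters with up to 21 CpG ranked better in the high group in 7.47% and in the low group in 44.0% of regions, and those above 21 in 4.42% and 57.9%. In the sparsest class the shares were 36.1% and 9.18% with up to 21 CpG and 24.3% and 20.0% above. In the middle class they were 25.3% and 14.2% with up to 21 CpG and 13.8% and 32.0% above, so there the favoured group changed with CpG count. At either CpG level the low group was favoured in the densest and the high group in the sparsest class. Within each class more CpG went with a larger low-group share. The part of promoter GC content in these shares was not tested.

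**Figure D5:**
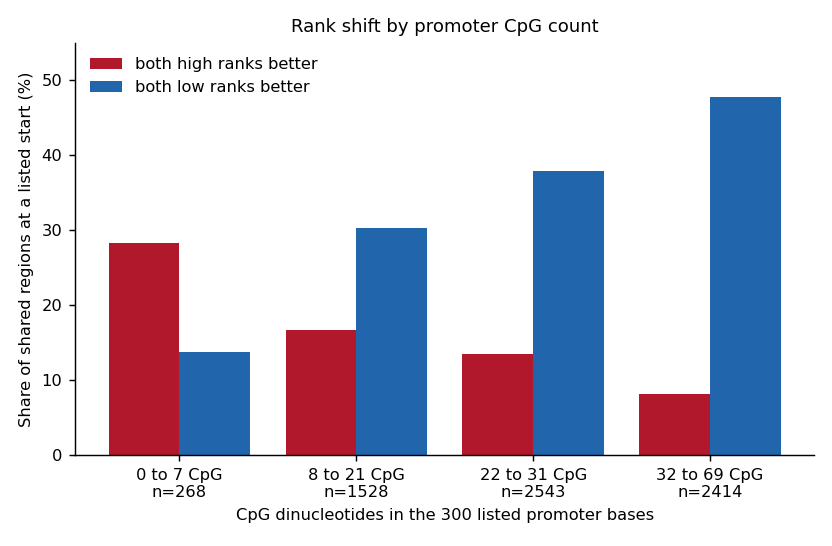
Share of shared regions at a listed start (%, vertical axis) in which both high ranks (red) or both low ranks (blue) were better, by the number of CpG in the 300 promoter bases (horizontal axis, with the number of regions). Red falls from 28.4% to 8.20% and blue rises from 13.8% to 47.8% from the lowest to the highest CpG class.

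A total of 13 short motifs were searched in these promoters on both strands. The SP and KLF letters GGGCGGGG, which hold a CpG themselves, were present in 29.9% of all listed promoters. They were in 31.0% of those ranked better in the high group, 49.8% of those ranked better in the low group and 39.4% of those whose ranks overlapped. The letters of NRF1, an activator of nuclear genes for mitochondrial functions, GCATGCGC, were in 3.66% of all, 5.04% of the high, 7.64% of the low and 6.62% of the overlapping promoters. TATAAA, the TATA box, ran the other way, with 9.51% of all, 5.84% of the high, 3.78% of the low and 4.84% of the overlapping promoters. The letters of PU.1, a myeloid and B cell factor, GAGGAAGT, were in 2.60%, 3.44%, 1.80% and 2.88% in the same order. The ETS letters CCGGAAG were in 12.9%, 21.1%, 23.7% and 22.2%, close together in the 3 shared sets. For the other motifs the shares are those of all promoters, of the high and of the low set. For NF-Y (CCAAT) they were 34.4%, 40.5% and 42.8%, and for YY1 (AAGATGGC) 3.50%, 5.38% and 6.88%. For CRE, the cyclic AMP element (TGACGTCA), they were 2.31%, 4.35% and 4.28%, and for the E-box of MYC and USF (CACGTG) 8.25%, 9.51% and 11.3%. For AP-1 (TGANTCA) they were 6.08%, 3.90% and 2.90%, and for RUNX (TGTGGT) 11.2%, 10.3% and 8.56%. For NF-kB (GGGANTTCC) they were 2.08%, 2.41% and 2.29%, and for the octamer (ATTTGCAT) 1.62%, 1.26% and 1.49%. Not every contrast was seen in the 63 high-only and 242 low-only promoters. There GGGCGGGG was in 28.6% and 46.3%, GCATGCGC in 3.17% and 4.13%, and TATAAA in 12.7% and 8.68%, in the order of the shared sets. GAGGAAGT was in 3.17% and 3.31% and CCAAT in 33.3% and 24.4%, in the opposite order. The short ETS and PU.1 letters can share bases, as can CCAAT with other elements, and a match is a description of letters, not of binding.

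Gene lists for the biology of the line were read against the background of 2.58% high-only and 3.47% low-only regions. Regions were assigned to the gene they lay in or whose end was nearest within 100 kb. B cell transcription factor genes had 139 compared regions, of which 3 were high-only (2.16%) and 9 low-only (6.47%). The high-only ones lay in EBF1, the early B cell factor, in ETS1 and at the start of BCL6. The EBF1 region (chr5:159011278-159011355) had ranks of 13087 and 16237 in the high libraries, against 25574 and 31277 in the low ones. The low-only ones included regions in RUNX1 and TCF4 and 27 bp from an end, start or termination, of SPI1 (chr11:47378572-47378583), the gene of PU.1. The SPI1 region had ranks of 17537 and 18276 in the low libraries, against 26387 in high replicate 2. Among the 85 shared regions of this list, 22 ranked better in the high and 18 in the low group.

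Of 73 regions of B cell surface and signalling genes, 1 was high-only and 7 were low-only. The high-only region lay in CD53, and the low-only ones included TNFRSF13B, the receptor TACI, with ranks of 15829 and 12889 and the nearest high summit 17126 bp away. CD22 was among the markers with no region among the best 24370 of either high library. NF-kB and lymphoblastoid activation genes had 2 high-only regions of 120, near the survival genes BCL2A1 and BIRC3, and 10 low-only, including JUNB, CCR7 and BCL2L1. MHC genes had 0 high-only and 4 low-only of 45, including B2M, HLA-C and HLA-F. Reads of HLA genes can align to more than 1 family member, so their regions are uncertain. Plasma cell genes had 0 and 2 of 53, at CD38 and PDIA4, and interferon response genes 1 and 1 of 47, at SP100 and IFI6.

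Regulators of chromatin were read in the same way. Of 85 regions of histone acetylation regulators, 2 were high-only and 5 low-only. Besides KAT2B on the high side, the low side held a region 91 bp before the start of EP300 (chr22:41092501-41092510, ranks 15032 and 17175) and a region in BRD3. A high summit lay 870 bp from the EP300 region. Polycomb and DNA methylation regulators had 3 high-only regions of 77, at DNMT3A, EED and JARID2, and 4 low-only, including CBX2, CBX7 and KDM2B. DNA replication genes had 0 and 1 of 34 (POLD1), mitosis genes 0 and 1 of 31 (AURKB) and ribosomal protein genes 0 and 1 of 26 (RPL23). T and NK cell genes had 0 and 0 of 29, myeloid genes 0 and 0 of 6, and erythroid genes 0 and 0 of 4.

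Among shared regions, the lists were read against 23.8% and 22.9%. Ribosomal protein genes had 2 regions ranked better in the high and 7 in the low group of 20, and DNA replication genes 4 and 9 of 26. Interferon response genes had 10 and 3 of 31, and mitosis genes 7 and 4 of 21. NF-kB genes had 18 and 20 of 66, histone acetylation regulators 10 and 12 of 45, Polycomb regulators 12 and 15 of 44, MHC genes 5 and 8 of 28, plasma cell genes 5 and 6 of 30, and B cell surface genes 6 and 9 of 33. T and NK cell genes had 2 and 1 of 12. With so few regions a list, these counts are descriptions, and the lists differ in how many of their regions lie at gene ends.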

How the data were processed

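The 6 libraries are InTAC-seq, an ATAC-seq for fixed and stained cells. Per the submitters' processing notes, bcl2fastq, FastQC, Bowtie2, Picard and MACS2 were used, with the builds hg38 and hg19. Not given in the sources used here are their versions and settings, any Tn5 shift, duplicate removal and excluded regions. A deposited list, 1 per library, holds single-base summits with a score read as the −log10 of a p-value or q-value from the authors' caller, used only to rank regions within a list. Contig names place the lists on hg38. Read counts were not used, so depth is unknown.

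A region's place was taken from the lower median of its summits and the protein-coding genes of RefSeq GRCh38.p14, and promoters from its promoter table. Named regions were, per place, the 3 high-only and 3 low-only regions whose worse rank within their group was best, 1 per gene, the 4 best in each direction that lay over 1 kb from any summit of the opposite group, the 2 shared regions in each direction with the widest gap between groups, and up to 3 per gene list. The printed shared promoters were the widest gaps at listed starts in each direction. The members, the 14 gene lists (275 entries, 270 of 274 genes matched) and the rules were chosen with earlier results of these data known, and the shared-rank, density and CpG comparisons were added after the data were seen. Regions on chromosome 8 enter all counts but none is described singly.

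Library values were tested by exact permutation (two-sided), and Wilson intervals cover counting error only. The scripts were tested on simulated lists. The alternatives changed the list length, the chaining, the window at gene ends, the region position, the rule for absence, gene-rich chromosomes, each library left out and the replicate number as a block. Python 3.11.15, numpy 2.4.6, pandas 2.3.3, scipy 1.17.1 and matplotlib 3.10.9 were used.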

Additional observations from a re-analysis of the deposited data

Results flagged for a closer look

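Summits on contigs outside the assembled chromosomes, which the comparison leaves out, made up a larger share of every sorted list than of the longer live control lists. They made up 0.276% of the summits in high replicate 1, 0.156% in high replicate 2, 0.217% in low replicate 1 and 0.183% in low replicate 2, against 0.113% and 0.116% in the live control. The sorted groups overlapped in this share.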

How the results depend on the processing

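The median-rank differences of shared regions kept their direction in all 11 alternatives at gene ends (1443 to 2176 positions), inside genes, in intergenic DNA and over 100 kb away. These 11 include the replicate block, which cannot change the difference. In the flank the difference was 246.5 positions with a gene-end window of 500 bp and lay between -139 and 350 with each library left out. At equal length the share differences depended on list length. With the full lists, which differ in length, they were 4.18 points at gene ends, -1.91 inside genes, -1.15 in intergenic DNA and -0.332 over 100 kb away. In the flank the difference was 0.0123 for the best 12185 regions. Without high replicate 1 and with lengthened lists it was 0.0414 in the flank and -0.299 over 100 kb away.

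High-only regions numbered 595 among the best 12185, 272 among the best 2500, 331 with full lists, 5385 without high replicate 1 and with lengthened lists, 44 with absence within 1 kb, and 1712 to 4877 with each library left out. Low-only regions numbered 325, 2830, 2992 and 142 for the best 2500, full lists, lengthened lists and absence within 1 kb, and 1985 to 3628 with each library left out. The gene-end share of high-only minus that of low-only regions was -16.1 points. It was -49.5 for the best 12185, -56.6 for the best 2500, 0.00865 with full lists, -4.42 with lengthened lists, -19.1 with chaining under 1000 bp, -10.1 without chromosomes 17, 19 and 22, and -20.5 to -8.30 with each library left out. The causes were not tested, except that full lists differ in length by construction.

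Taking the replicate number as a block cannot change a difference of group means, so only the test differs. For the gene-end share difference of -2.48 points it gave an exact sign-flip p = 0.5, the smallest that 2 pairs allow. Same-numbered libraries deviated together at a correlation of 0.0693 over shared regions, so the numbers were not taken as pairs. Depth is unknown, 2 libraries per group are too few for a permutation test to pass its threshold, and a region absent from a list may lie below the caller's threshold.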
